A study of Mus musculus with 3 samples.

Results

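The proteasome genes described here are those whose symbol begins with Psm, a letter a to e and a number, read from probes that carry a curated RefSeq mRNA. The gene table held 46 such symbols, and 45 of them had a probe among the 22908 genes named on the array. Of these 45 members, 44 were well above background on at least 1 array; the 45 had 69 probes in all. The study put total RNA of 3 mouse splenic tumours on Agilent 1-colour arrays, 1 array per tumour. The samples, all male and 10 weeks old, comprised 2 of the genotype LSD1 × p53+/−, numbered 2 and 3, and 1 of the genotype p53+/−. They are called LSD1 tumour 2, LSD1 tumour 3 and the p53 tumour below. All 3 carry the p53+/− genotype, in which a single working copy of the gene for the tumour suppressor p53 (Trp53) is left. LSD1 demethylates histones and is the product of Kdm1a. Which allele or transgene the LSD1 part of the name stands for, and the cells in which it acts, are not given in the labels, nor is it given whether the number marks a mouse or a line. No pooling of animals is stated. With a single p53 tumour, every difference below is a difference between these tumours, and both LSD1 tumours are set against the same p53 array.

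The proteasome is the barrel-shaped protease that breaks down ubiquitin-tagged proteins. Its 20S core is built of alpha subunits (Psma genes), which form the gate, and beta subunits (Psmb genes), of which Psmb5, Psmb6 and Psmb7 cut peptides. The 19S cap adds a ring of ATPases (Psmc genes) that unfolds substrates and non-ATPase subunits (Psmd genes) that bind and remove ubiquitin. Interferon induces Psmb8, Psmb9 and Psmb10, which replace Psmb5, Psmb6 and Psmb7 in newly built cores to form the immunoproteasome. It also induces Psme1 and Psme2, the subunits of the PA28 activator. Immune cells of the spleen carry immunoproteasomes without added interferon, and the peptides that these cut supply MHC class I molecules.

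Levels are log2 of the processed signal over the array's 75th percentile, and a difference is the level of an LSD1 tumour less that of the p53 tumour. Between 51.5% and 55.6% of non-control spots were well above background, and no spot was saturated. Of the genes named, 15241 were well above background on at least 1 array and were tested, each by its brightest probe. Kdm1a had levels of 2.71 and 2.29 in LSD1 tumours 2 and 3 and 2.07 in the p53 tumour. In LSD1 tumour 3 its difference of 0.22 turned to -0.04 with quantile normalization, -0.14 in the authors' value table and -0.11 with the percentile taken over detected probes, so its transcript does not check the labels. Trp53 had levels of -0.42 and -0.13 in LSD1 tumours 2 and 3 and 0.18 in the p53 tumour. All 6 genes of a leukocyte and spleen list, among them Ptprc and the spleen regulator Tlx1, were above background on all 3 arrays. Of them, 5 were lower in both LSD1 tumours (4 with normexp background correction), beside 27.8% of all genes. Their median differences were -0.40 in LSD1 tumour 2 and -0.95 in LSD1 tumour 3. LSD1 tumour 3 and the p53 tumour lay on slide 1 and LSD1 tumour 2 on slide 2. The scan dates in the file headers divide the arrays in the same way. Nothing in the labels ties the tumours of a genotype to separate litters, and a p-value speaks for these 3 arrays alone. The spread behind the limma p-values below comes from the gap between the LSD1 arrays, moderated over all genes, because the p53 tumour is 1 array. Fewer cells of a type cannot be told apart from less RNA per cell in whole tumours.

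Proteasome genes stood higher in both LSD1 tumours than in the p53 tumour in most cases, and the interferon-inducible ones did not. Of the 44 members above background, 36 were higher in both LSD1 tumours, against 35.0% of all genes tested, and none was lower in both, against 27.8%. The 8 that were higher in LSD1 tumour 3 alone were the 4 inducible genes, Psmc4, Psmd9, Psmd10 and Psme4. All 44 were above background on all 3 arrays. Of the 12812 genes for which this held, 5206 were higher in both LSD1 tumours and 3387 lower in both. The shares of 35.0% and 27.8% are of all genes tested and needed the brighter side well above background. The 31 constitutive subunits of the 20S core and 19S cap had a median difference of 0.61 in LSD1 tumour 2 (1.53-fold) and 1.01 in LSD1 tumour 3 (2.01-fold). The 4 measured inducible genes, Psmb8, Psmb9, Psmb10 and Psme1, had medians of -0.36 (0.78-fold) and 0.74 (1.67-fold). The medians over all genes tested were 0.05 and 0.16.

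By size, 17 of the 44 members were at least 1.5-fold higher in both LSD1 tumours, where 11.0% of all genes were, and 16 of the 17 were constitutive subunits. Psmb2 alone was at least 2-fold higher in both, where 3.48% of all genes were. No member was at least 1.5-fold lower in both, against 10.2% of genes, or 2-fold lower, against 5.38%. The size counts depend on the scaling: 5 members passed the 1.5-fold size with quantile normalization (8.86% of genes), 6 in the authors' value table (5.07%) and 8 with the percentile taken over detected probes (6.04%). The constitutive medians were also smaller there, at 0.29 to 0.49 in LSD1 tumour 2 and 0.51 to 0.67 in LSD1 tumour 3, and the number of constitutive subunits higher in both was 24, 27 and 28 of 31. The inducible medians in the same settings were -0.67, -0.57 and -0.48 in LSD1 tumour 2 and 0.21, 0.37 and 0.40 in LSD1 tumour 3.

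The genotype difference passed limma's test for none of the 44 members and for 0.0% of all genes, with Benjamini-Hochberg adjusted p from 0.967 to 0.995 over the members. At an unadjusted limma p under 0.05 there were 0 members and 568 genes (6 members and 1756 genes with no filter on dim probes, and 1 member each with normexp and with genes above background on all 3 arrays), and the lowest unadjusted limma p of a member was 0.0651, for Psmb2. With 2 LSD1 tumours and 1 p53 tumour the fit had 1 residual degree of freedom, and it took the p53 tumour to vary like the other group. As a description of the spread, 20 of the 44 members were higher in both LSD1 tumours by more than the gap between those tumours, which held for 18.5% of all genes, and 19 of the 20 were constitutive.

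**Figure D1:**
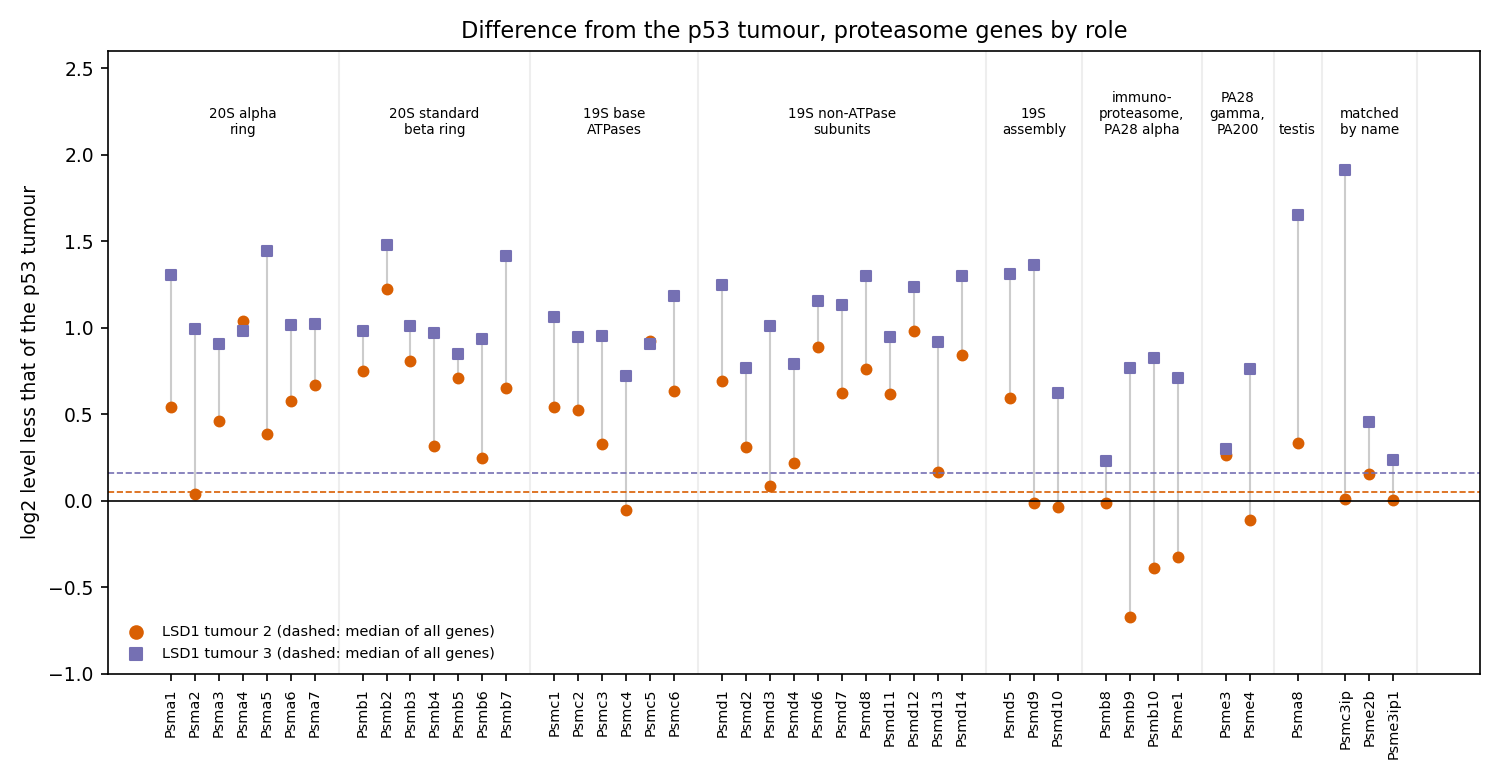
Each column is a member, grouped by role, and the vertical axis is its difference from the p53 tumour in log2 units, with circles for LSD1 tumour 2 and squares for LSD1 tumour 3 (1 array each, no error bars). Dashed lines mark the medians of all genes tested, 0.05 and 0.16; the constitutive subunits on the left lie above 0 in both tumours except Psmc4, while the inducible genes lie below 0 in LSD1 tumour 2.

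Bright probes tended to be higher in LSD1 tumour 3 in general, so the members were also set beside genes of like level. Among the 1091 genes with a mean level of 3 to 4, the medians were 0.13 in LSD1 tumour 2 and 0.45 in LSD1 tumour 3, and the 7 constitutive subunits in that range had medians of 0.84 and 1.15. At levels of 4 to 5 the medians of 540 genes were 0.24 and 0.65, and those of 8 constitutive subunits 0.53 and 1.01. At levels of 5 to 7 the medians of 402 genes were 0.14 and 0.56, and those of 10 constitutive subunits 0.39 and 0.98. In these ranges, 6 of 7, 2 of 8 and 3 of 10 constitutive subunits were at least 1.5-fold higher in both LSD1 tumours. The shares of all genes there were 19.2%, 23.7% and 21.9%, so at levels of 4 to 7 the counts were near those shares. The constitutive subunits lay above the median of their own range in 27 of 31 cases in LSD1 tumour 2 and in 31 of 31 in LSD1 tumour 3. Over them, the median excess was 0.40 and 0.45. The inducible genes lay above theirs in 0 of 4 and 3 of 4 cases.

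**Figure D2:**
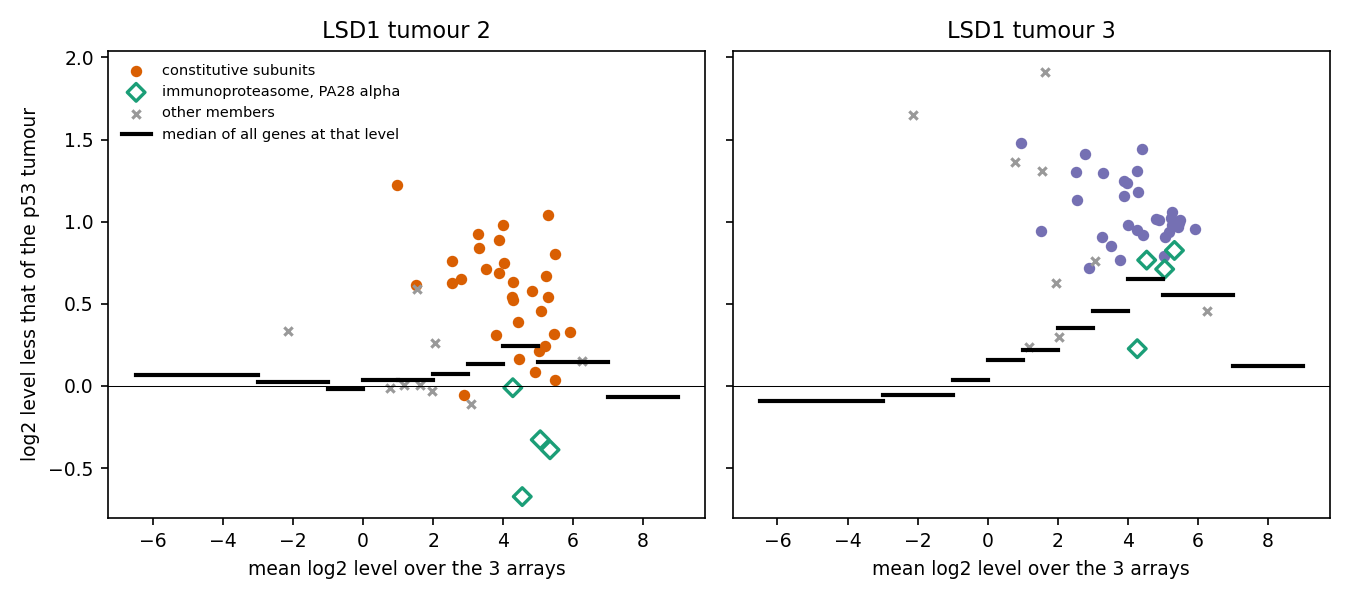
The horizontal axis is the mean log2 level over the 3 arrays and the vertical axis the difference from the p53 tumour in log2 units, for LSD1 tumour 2 on the left and LSD1 tumour 3 on the right. Black bars are medians of all genes tested in each range of level; filled circles, the constitutive subunits, lie above the bars in 27 and 31 of 31 cases, and open diamonds, the 4 inducible genes, in 0 and 3 of 4.

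All 14 subunits of the 20S core were higher in both LSD1 tumours, with medians of 0.61 and 1.0 in LSD1 tumours 2 and 3. Psma2, Psmb4 and Psmb6 turned to lower in LSD1 tumour 2 with quantile normalization, at -0.31, -0.04 and -0.13. Of these, Psma2 was also lower there in the authors' value table and with the percentile over detected probes, at -0.18 and -0.08. In the alpha ring, which gates the core, the medians were 0.54 and 1.02, and 2 of 7 genes, Psma4 and Psma7, passed the 1.5-fold size in both tumours. Psma4 had levels of 5.64 and 5.58 in LSD1 tumours 2 and 3 and 4.60 in the p53 tumour, so the LSD1 tumours were nearly level with each other and a whole log2 unit above the p53 tumour. Psma5 had levels of 4.19 and 5.25 in the LSD1 tumours and 3.80 in the p53 tumour, with most of the distance in LSD1 tumour 3. For Psma2, at 5.17 and 6.12 in the LSD1 tumours and 5.13 in the p53 tumour, LSD1 tumour 2 and the p53 tumour were nearly level.

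The standard beta ring had medians of 0.71 and 0.98, and 5 of its 7 genes passed the 1.5-fold size in both. Psmb2, a structural beta subunit, showed the highest mean difference of any member: its levels were 1.29 and 1.54 in LSD1 tumours 2 and 3 and 0.07 in the p53 tumour, which is 2.33-fold and 2.78-fold (mean in LSD1 tumours 1.42 ± 0.18, SD, n = 2). Psmb5, which carries the chymotrypsin-like site, had 3.71 and 3.85 in the LSD1 tumours and 3.00 in the p53 tumour. Both LSD1 tumours were well clear of the p53 tumour for these genes. Psmb7, which carries the trypsin-like site, had 2.76 and 3.52 in the LSD1 tumours and 2.11 in the p53 tumour, and the LSD1 tumours stood farther apart from each other than LSD1 tumour 2 stood from the p53 tumour. Psmb6, which carries the caspase-like site, had 5.04 and 5.73 in the LSD1 tumours and 4.79 in the p53 tumour, with LSD1 tumour 2 nearer to the p53 tumour than to LSD1 tumour 3.

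Of the 17 constitutive 19S genes, 16 were higher in both LSD1 tumours, with medians of 0.61 and 1.01 in LSD1 tumours 2 and 3. Psmd3, Psmd4 and Psmd13 turned to lower in LSD1 tumour 2 with quantile normalization, at -0.24, -0.15 and -0.09. Psmd3 and Psmd13 were also lower there in the authors' value table, at -0.13 and -0.05, and Psmd3 with normexp background correction and the percentile over detected probes, at -0.01 and -0.03. The 6 base ATPases had medians of 0.53 and 0.95, and Psmc5 and Psmc6 passed the 1.5-fold size in both tumours. Psmc5 had levels of 3.60 and 3.58 in LSD1 tumours 2 and 3 and 2.67 in the p53 tumour, with the LSD1 tumours nearly level. The remaining gene of the 17, the ATPase Psmc4, had 2.61 and 3.39 in the LSD1 tumours and 2.67 in the p53 tumour. It is the only member whose probes differed in sign: in LSD1 tumour 2 its second probe gave 0.28 where the brighter probe gave -0.06. Among 18 members with more than 1 probe above background, probes of a gene typically lay 0.13 apart in LSD1 tumour 2 and 0.14 in LSD1 tumour 3.

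The 11 non-ATPase subunits had medians of 0.62 and 1.13, and 7 of them passed the 1.5-fold size in both LSD1 tumours. The next 3 members by mean difference after Psmb2 were found here, and they encode subunits of the 19S lid. Psmd12, a structural lid subunit, had levels of 4.23 and 4.48 in LSD1 tumours 2 and 3 and 3.25 in the p53 tumour (1.97-fold and 2.35-fold). Psmd14, the deubiquitinase of the lid, had 3.43 and 3.89 in the LSD1 tumours and 2.59 in the p53 tumour (1.79-fold and 2.46-fold). Psmd8 had 2.61 and 3.14 in the LSD1 tumours and 1.84 in the p53 tumour. For these lid genes every LSD1 tumour was above the p53 tumour by more than the LSD1 tumours differed. Psmd6, another structural lid subunit, had 4.10 and 4.37 in the LSD1 tumours and 3.21 in the p53 tumour, with the same order. Psmd4, a ubiquitin receptor of the cap, had 4.91 and 5.49 in the LSD1 tumours and 4.69 in the p53 tumour and its mean difference was the lowest of the non-ATPase subunits.

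The LSD1 tumours were not alike in size of difference. LSD1 tumour 3 had 40 of 44 members at least 1.5-fold above the p53 tumour, where 29.2% of all genes were, and this included 31 of 31 constitutive subunits. In LSD1 tumour 2 the count was 17 of 44, where 23.6% of all genes were. Set against each other, 19 of 44 members were at least 1.5-fold higher in LSD1 tumour 3 than in LSD1 tumour 2, where 25.4% of genes were. These comprised 10 of 31 constitutive subunits and 3 of 4 inducible genes. LSD1 tumour 3 is also the tumour that shares the p53 tumour's slide and scan date, so the count of 40 is the value within that slide. The part of the slide or scan in the lower count of LSD1 tumour 2 cannot be told apart from the tumour.

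The immunoproteasome genes did not follow the constitutive ones in LSD1 tumour 2. Psmb9, Psmb10 and Psme1 were lower than in the p53 tumour there and higher in LSD1 tumour 3, and Psmb8 was nearly level with the p53 tumour in both. None of the 4 was higher in LSD1 tumour 2 under the 5 other scalings and probe rules. In LSD1 tumour 3, all 4 were higher with the scaling used here, and Psmb8 turned to lower with quantile normalization, in the authors' value table and with the percentile over detected probes (-0.29, -0.14 and -0.11). In LSD1 tumour 2, the differences of 30 of 31 constitutive subunits lay above those of all 4 inducible genes, and in LSD1 tumour 3 those of 28 of 31 did.

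Psmb9 had levels of 3.84 and 5.28 in LSD1 tumours 2 and 3 and 4.52 in the p53 tumour (0.627-fold and 1.70-fold; mean in LSD1 tumours 4.56 ± 1.02, SD, n = 2). Psmb10 had 4.80 and 6.02 in the LSD1 tumours and 5.19 in the p53 tumour (0.764-fold and 1.77-fold). Psme1, the alpha subunit of PA28, had 4.60 and 5.64 in the LSD1 tumours and 4.93 in the p53 tumour (0.797-fold and 1.64-fold). In all of these the p53 tumour lay between the LSD1 tumours, which were over a log2 unit apart. Psmb8 had 4.19 and 4.43 in the LSD1 tumours and 4.20 in the p53 tumour, with all 3 tumours within 0.24 log2 units. Psme2, the beta subunit of PA28, had no probe on a curated mRNA. Psme2b, which the gene table calls Psme2-like, had 6.21 and 6.51 in the LSD1 tumours and 6.06 in the p53 tumour, a difference that in LSD1 tumour 2 turned to -0.12 with quantile normalization and -0.06 in the authors' table. Whether its probes also read Psme2 was not tested, and with Psme2b counted in, the inducible medians were -0.33 and 0.71.

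**Figure D3:**
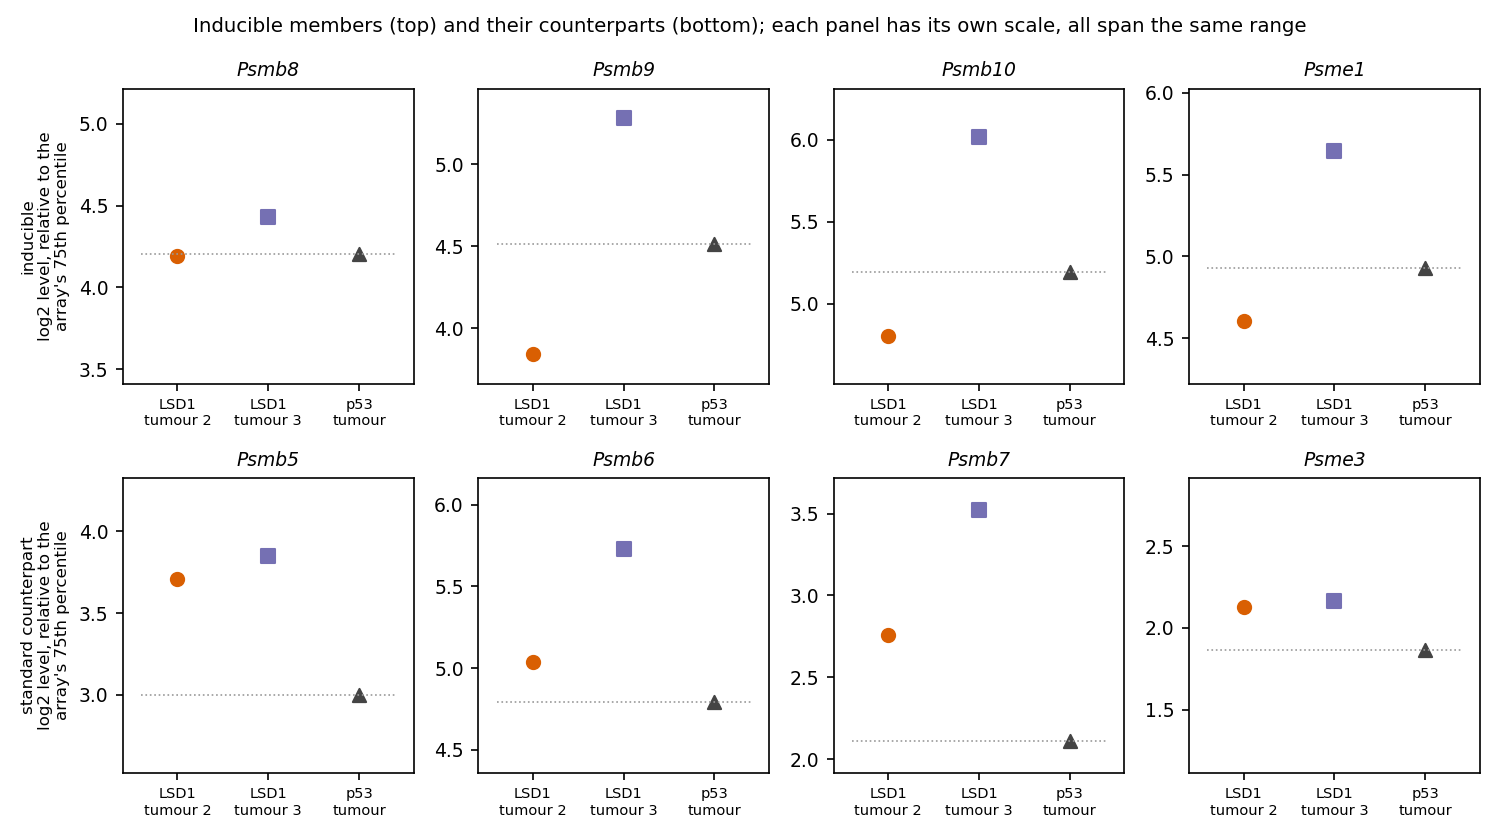
Each panel shows 1 gene, with the log2 level relative to the array's 75th percentile on the vertical axis and LSD1 tumour 2, LSD1 tumour 3 and the p53 tumour from left to right (1 array each). Panels span the same range from different starting levels, and the dotted line is the p53 tumour's level; LSD1 tumour 2 lies below it for Psmb9, Psmb10 and Psme1 in the top row and above it for all counterparts in the bottom row.

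The ratio of an inducible gene to its counterpart within an array does not depend on that array's scale factor. Relative to the p53 tumour, the ratio of Psmb8 to Psmb5 stood at 0.607-fold in LSD1 tumour 2 and 0.649-fold in LSD1 tumour 3, and both tumours were thus below it (mean log2 difference -0.67 ± 0.07, SD, n = 2; two-sided exact permutation p = 0.333). Psmb10 to Psmb7 stood at 0.487-fold and 0.666-fold, again below the p53 tumour in both LSD1 tumours (-0.81 ± 0.32, SD, n = 2; exact permutation p = 0.333). The ratio of Psmb9 to Psmb6 was 0.529-fold and 0.889-fold (-0.54 ± 0.53, SD, n = 2; exact permutation p = 0.667). So all 3 catalytic pairs had less of the inducible subunit's signal, relative to the standard one, in both LSD1 tumours than in the p53 tumour. Psme1 to Psme3 was 0.665-fold in LSD1 tumour 2 and 1.33-fold in LSD1 tumour 3, with the p53 tumour between them (-0.09 ± 0.71, SD, n = 2; exact permutation p = 1). The 3 arrays allow no p below 0.333, and adjusted over the 4 pairs the exact permutation p-values were 0.667 to 1. No pair could pass a threshold of 0.05 in this design.

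Psmb9 and Psmb8 lie on chromosome 17 among the MHC genes, in the order Psmb9, Tap1, Psmb8, Tap2, while Psme1 and Psme2 are near each other and near Irf9 on chromosome 14. The 250 bases before the start of 4 of the paired genes are shown because, among the catalytic subunits searched, a motif matched in these. They are RefSeq sequence of assembly GRCm38.p6, 5′ to 3′ on the gene's strand, with motif matches in capitals. They cover chr17:34197945-34198194 (plus strand) for Psmb8, chr17:34187331-34187580 (minus strand) for Psmb9, chr14:54617996-54618245 (minus strand) for Psmb5 and chr11:70525107-70525356 (plus strand) for Psmb6.

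Psmb8: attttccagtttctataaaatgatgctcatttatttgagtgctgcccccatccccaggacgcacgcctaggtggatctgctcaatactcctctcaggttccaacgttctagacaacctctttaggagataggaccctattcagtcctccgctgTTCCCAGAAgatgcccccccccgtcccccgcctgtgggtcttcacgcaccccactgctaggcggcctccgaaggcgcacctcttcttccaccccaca
Psmb9: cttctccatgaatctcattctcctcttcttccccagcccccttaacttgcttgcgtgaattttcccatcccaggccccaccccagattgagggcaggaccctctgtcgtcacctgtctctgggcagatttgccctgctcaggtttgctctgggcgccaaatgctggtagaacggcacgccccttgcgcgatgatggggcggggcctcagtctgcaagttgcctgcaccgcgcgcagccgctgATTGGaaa
Psmb5: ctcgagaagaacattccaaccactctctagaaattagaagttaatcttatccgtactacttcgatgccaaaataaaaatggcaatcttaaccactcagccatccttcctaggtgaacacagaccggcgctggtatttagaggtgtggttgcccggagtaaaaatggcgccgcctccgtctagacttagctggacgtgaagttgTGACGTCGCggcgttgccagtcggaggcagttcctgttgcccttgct
Psmb6: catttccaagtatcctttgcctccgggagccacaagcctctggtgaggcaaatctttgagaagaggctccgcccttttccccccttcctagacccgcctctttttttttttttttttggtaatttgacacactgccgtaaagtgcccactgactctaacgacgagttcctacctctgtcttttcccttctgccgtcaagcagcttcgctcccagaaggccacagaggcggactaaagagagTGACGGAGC

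The motifs were searched on both strands in the 250 bases before each start. In Psmb8 the capitals mark a match to TTCNNNGAA, a pattern bound by STAT factors, from base -97 to -89 before the start. It was in 1 of 6 promoters of the inducible genes and Psme2, 0 of 27 of the constitutive genes and 7.02% of all 32851 promoters. In Psmb5 (bases -47 to -39) and Psmb6 (bases -9 to -1) they mark TGACNNNGC, the core that NRF1 and NRF2 bind, which was in 4 of 27 constitutive promoters (14.8%), 0 of 6 inducible and 10.2% of all. In Psmb9 they mark a CCAAT box (CCAAT, on the other strand), present in 10 of 27 constitutive promoters, 1 of 6 inducible and 33.8% of all. The pattern GAAANNGAA, bound by interferon regulatory factors, was in 2 of 27 constitutive promoters, 0 of 6 inducible and 7.13% of all. No match printed overlaps another. The 27 promoters belong to 25 of the 31 constitutive genes. A match is a stretch of letters and not a measured site, and the array says nothing of binding.

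Activators and tissue-restricted members did not all keep the same order of the tumours. Psme3, the PA28 gamma subunit of the nucleus, had levels of 2.13 and 2.16 in LSD1 tumours 2 and 3 and 1.87 in the p53 tumour, and the direction in LSD1 tumour 3 turned to lower in the authors' value table (-0.07) and with the percentile over detected probes (-0.04). Psme4, the PA200 activator, had 2.76 and 3.63 in the LSD1 tumours and 2.87 in the p53 tumour, with the p53 tumour close to LSD1 tumour 2. Psma8, an alpha subunit of the testis, had -2.47 and -1.15 in the LSD1 tumours and -2.81 in the p53 tumour, a low signal that was highest in LSD1 tumour 3. Psmb11, the thymus subunit that lies next to Psmb5, was not well above background on any array. With the scaling used here, Psme3, Psme4 and Psma8 were all highest in LSD1 tumour 3. Psme3 and Psma8 were lowest in the p53 tumour and Psme4 in LSD1 tumour 2.

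The 3 assembly chaperones of the 19S base that carry subunit names were nearly level with the p53 tumour in LSD1 tumour 2 or above it, and all higher in LSD1 tumour 3. Psmd5 differed by 0.59 and 1.31, Psmd9 by -0.01 and 1.36, and Psmd10, also called gankyrin, by -0.03 and 0.62. The small differences of Psmd9 and Psmd10 in LSD1 tumour 2 turned sign with normexp background correction. Psmc3ip, a factor of meiotic recombination matched only by its name, had levels of 0.996 and 2.90 in LSD1 tumours 2 and 3 and 0.989 in the p53 tumour, and was the member most different between the LSD1 tumours (3.74-fold). Psme3ip1, named for its binding to PA28 gamma, differed by 0.0028 and 0.24 (turned to lower in both LSD1 tumours in the authors' value table and with the percentile over detected probes).

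By list medians with the scaling used here, genes that build or serve the constitutive proteasome leaned the same way as its subunits, in smaller sizes. The list of ubiquitin, E1 and p97 genes did not do so in LSD1 tumour 2 with quantile normalization or in the authors' value table. All genes at levels of 2 to 3 had medians of 0.07 and 0.35 in LSD1 tumours 2 and 3, and those at 3 to 4 had 0.13 and 0.45. A lean of this kind is thus not particular to these lists. Single genes such as Psmg1, Uchl5 and Rad23b differed by more than the constitutive medians. No gene of these lists passed limma's test. Of 8 assembly chaperones and regulators of the 20S core, 5 were higher in both LSD1 tumours (4 in the authors' value table) and 1 lower in both, beside 35.0% and 27.8% of all genes, with medians of 0.33 and 0.81. Psmg1, a chaperone of the alpha ring, had levels of 3.98 and 3.89 in LSD1 tumours 2 and 3 and 2.69 in the p53 tumour, with the LSD1 tumours nearly level and over a log2 unit above the p53 tumour. Its partner Psmg2 differed by 0.48 and 0.93, and Psmg3 by 0.45 and 0.92.

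Of 14 receptors and deubiquitinases that dock on the 19S cap, 10 were higher in both LSD1 tumours and 1 lower in both, beside 35.0% and 27.8% of all genes. Their medians were 0.34 and 0.69, and 3 passed the 1.5-fold size in both, beside 11.0% of all genes. Under the other scalings 7 to 9 of 14 were higher in both. Uchl5, a deubiquitinase of the cap, had levels of 3.33 and 3.60 in LSD1 tumours 2 and 3 and 2.28 in the p53 tumour. Rad23b, a shuttle for ubiquitinated proteins, had 3.64 and 3.60 in the LSD1 tumours and 2.53 in the p53 tumour. Both were above the p53 tumour by more than the LSD1 tumours differed, whereas Txnl1, a thioredoxin-like partner of the cap, differed by 0.37 and 1.34.

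The 9 genes for ubiquitin, its E1 enzymes and the p97 unfoldase had medians of 0.13 and 0.48, near the 0.13 and 0.45 of all genes at levels of 3 to 4. Of the 9, 5 were higher in both LSD1 tumours, beside 35.0% of all genes. Under the other scalings 1 to 5 of the 9 were. The median in LSD1 tumour 2 turned to -0.08 in the authors' value table and to -0.04 with quantile normalization. Vcp, which encodes p97, differed by 0.16 and 0.66, its cofactor Nploc4 by 0.30 and 0.74, and the E1 enzyme Uba1 by 0.13 and 0.67, and Vcp and Uba1 turned to lower in LSD1 tumour 2 in the same settings.

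NRF1 and other known regulators of subunit genes, a list that holds activators, a repressor and proteins that act on the factors themselves, did not share the subunits' order. Of 11 such genes, 3 stood higher in both LSD1 tumours and 2 lower, near the shares of all genes, 35.0% and 27.8%. Their medians were -0.20 and 0.16, where those of all genes tested were 0.05 and 0.16. The median of LSD1 tumour 3 turned to -0.20 in the authors' value table and -0.17 with the percentile over detected probes. Nfe2l1, which encodes NRF1, the factor that raises subunit transcription when proteasome activity is low, had levels of 1.90 and 2.33 in LSD1 tumours 2 and 3 and 2.31 in the p53 tumour. Stat3 had 1.72 and 2.82 in the LSD1 tumours and 3.11 in the p53 tumour, the highest value being in the p53 tumour. Nfe2, an erythroid relative of NRF1, differed by -0.44 and 1.498, and Bach1, a repressor at the same sites, by -0.79 and -0.24.

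With the scaling used here, most genes of the MHC class I pathway resembled the inducible subunits in the order of the tumours. Of 12 genes, 7 were lower in LSD1 tumour 2 and higher in LSD1 tumour 3, 4 were higher in both and 1 was lower in both, with medians of -0.30 and 0.47. Over all 15241 genes, 2934 were lower in LSD1 tumour 2 and higher in LSD1 tumour 3. All genes at levels of 3 to 4 had medians of 0.13 and 0.45. Quantile normalization put 5 of the 12 lower in both LSD1 tumours. The authors' value table put 4 lower in both, as did the percentile over detected probes. The number higher in LSD1 tumour 3 was 11 with the scaling used here and 12 with the mean over probes. It fell to 7 with quantile normalization and to 8 in each of the others just named. The medians of LSD1 tumour 3 were then 0.06, 0.11 and 0.14 in the order given. Tap1, a subunit of the peptide transporter and the neighbour of Psmb9 and Psmb8, had levels of 2.62 and 3.72 in LSD1 tumours 2 and 3 and 3.30 in the p53 tumour (0.41 in LSD1 tumour 3 turned to -0.02 with quantile normalization). Tap2, the transporter's other subunit and Psmb8's neighbour on the far side, differed by -0.37 and -0.24, lower in both LSD1 tumours, and turned to higher in both with the mean over probes. B2m, the light chain, had 6.44 and 7.31 in the LSD1 tumours and 6.74 in the p53 tumour, again with the p53 tumour in the middle. Lap3, an interferon-inducible peptidase, had 3.06 and 4.12 in the LSD1 tumours and 2.25 in the p53 tumour, the largest mean difference of the list. Canx and Pdia3, folding factors of the class I heavy chain, were higher in both LSD1 tumours, by 0.63 and 0.59 and by 0.42 and 0.51. Tap1, Tap2 and B2m were chosen after their values were seen.

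The interferon receptors and class I transactivators were lower in LSD1 tumour 2 for 12 of 13 genes and in LSD1 tumour 3 for 7 of 13, with medians of -0.76 and -0.11. Of all 15241 genes, 7168 were lower in LSD1 tumour 2 and 6385 in LSD1 tumour 3. Under the other scalings 3 to 5 of 13 were higher in LSD1 tumour 3 in place of 6. Ifng, the gene of interferon gamma, had levels of -2.27 and 1.27 in LSD1 tumours 2 and 3 and -1.23 in the p53 tumour, so LSD1 tumour 3 had by far the highest signal. Irf8 had 3.21 and 4.06 in the LSD1 tumours and 4.88 in the p53 tumour, and Ifngr1 had 2.80 and 2.72 in the LSD1 tumours and 3.77 in the p53 tumour, so both were highest in the p53 tumour. Nlrc5, the transactivator of class I genes (chosen after its values were seen), had 1.45 and 2.96 in the LSD1 tumours and 2.61 in the p53 tumour, the order seen for Psmb9. Its difference of 0.35 in LSD1 tumour 3 came to just below 0 in the authors' value table and with quantile normalization.

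**Figure D4:**
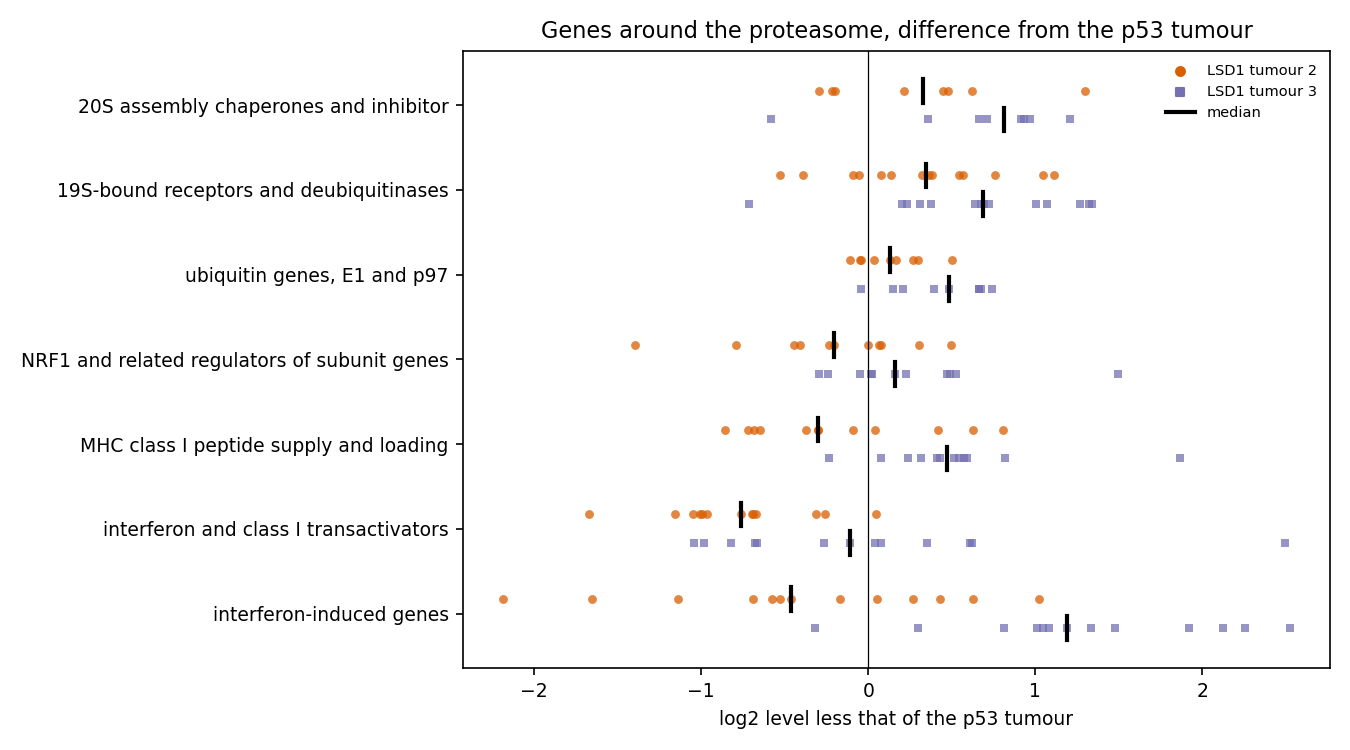
Each point is a gene and the horizontal axis its difference from the p53 tumour in log2 units, with circles above for LSD1 tumour 2 and squares below for LSD1 tumour 3; black bars are list medians. The bars for the chaperones and cap partners lie right of 0 in both tumours, and those for class I genes and interferon-induced genes lie left of 0 in LSD1 tumour 2 and right of it in LSD1 tumour 3.

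Markers of cell types and states moved between the tumours beside these values, and their part in the proteasome results was not tested. Sums are of linear levels, in units of the array's 75th percentile, so the brightest genes of a list weigh most. Of all 15241 genes, 7168 were lower and 8073 higher in LSD1 tumour 2, and 6385 were lower and 8856 higher in LSD1 tumour 3. In both LSD1 tumours, 35.0% were higher and 27.8% lower. Interferon-induced genes summed to 99.98 and 285 in LSD1 tumours 2 and 3 and 88.2 in the p53 tumour, with median differences of -0.46 and 1.19. The sums rest largely on Isg15, the brightest of the list, at 5.76 and 7.05 in the LSD1 tumours and 5.13 in the p53 tumour. In LSD1 tumour 2 the sum thus stood above the p53 tumour and the median below it. Of the 13 genes, 12 were higher in LSD1 tumour 3 (11 under 3 of the other scalings) and 8 were lower in LSD1 tumour 2. The 10 genes of G2 and mitosis summed to 119 and 244 in the LSD1 tumours and 76.4 in the p53 tumour, and all 10 were higher in both LSD1 tumours (9 with quantile normalization). All 9 T cell markers were lower in LSD1 tumour 3 and 8 were higher in LSD1 tumour 2, with sums of 202 and 30.4 in the LSD1 tumours and 66.3 in the p53 tumour. All 10 B cell markers were lower in both LSD1 tumours, with sums of 42.8 and 152 in those tumours and 299.7 in the p53 tumour.

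Neutrophil markers summed to 300.4 and 278 in LSD1 tumours 2 and 3 and 148 in the p53 tumour, with 9 of 10 higher in both LSD1 tumours. Erythroid markers summed to 882 and 1567 in the LSD1 tumours and 1229 in the p53 tumour, and 9 of 10 were lower in LSD1 tumour 2 and higher in LSD1 tumour 3, although the number higher in LSD1 tumour 3 was 8 in the authors' value table. The order of the tumours for the erythroid list is thus the one seen for Psmb9, Psmb10 and Psme1. Dendritic cell markers were lower in both LSD1 tumours for 7 of 8 genes, with median differences of -1.79 and -0.79 (-0.74 and -0.62 with normexp background correction). Their sums (143 and 131 in the LSD1 tumours and 170.1 in the p53 tumour) rest mostly on Siglech, with levels of 7.10, 6.95 and 7.28 in that order. Macrophage markers were lower in both LSD1 tumours for 4 of 9 genes, or up to 6 under other scalings (sums 182 and 154, against 214 in the p53 tumour). NK and cytotoxic markers summed to 25.0 and 20.2 in the LSD1 tumours and 37.4 in the p53 tumour, with 3 of 8 lower in both LSD1 tumours (up to 6 under other scalings) and 4 of 8 higher in LSD1 tumour 3 (down to 1). Stromal markers summed to 15.7 and 11.7 in the LSD1 tumours and 30.9 in the p53 tumour. No marker list had all its genes at background on any array: at most 2 genes of a list, in the dendritic list, were below background on some array.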

How the data were processed

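Total RNA of 3 splenic tumours was measured on 1 array each. The authors deposited the scanner output; the submitters' processing notes name Agilent Feature Extraction 11.5.1.1. The processed signal is a linear intensity that was background-subtracted within the array, per the file headers, and was not scaled between arrays. The authors' value table holds the same intensities times 1 factor per array (0.779, 0.902 and 1.06 for LSD1 tumours 2 and 3 and the p53 tumour); what set the factors is not given in the sources used here.

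From the deposited intensity, log2 levels relative to each array's 75th percentile (712 and 554 for LSD1 tumours 2 and 3, 608 for the p53 tumour) were computed. Outlier spots were left out. RefSeq accessions matched to a RefSeq gene table (GRCm38.p6, names only) named 32994 of 56605 probes, and the probe with the highest mean stood for a gene. limma 3.58.1 (R 4.3.3, lmFit and eBayes, Benjamini-Hochberg adjustment over 15241 genes, threshold 0.05) was the test. On simulated data its mean estimates were checked against the sizes put in, and its power to call genes is not reported here. Counts by size, and the shares of all genes higher or lower in both LSD1 tumours, needed the brighter side well above background.

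Members, gene lists and tests were chosen with earlier results of these data known. The genes named are Psmb8, Psmb9, Psmb10, Psme1, Psme2, Psmb5, Psmb6, Psmb7, Psme3, Psme4, Psma8, Psmb11 and Psmc3ip, the 5 highest and 5 lowest remaining members by mean difference, up to 3 genes per pathway list by absolute mean difference, and Kdm1a and Trp53. Other genes with values were chosen after these were seen. Alternatives changed the background correction, the scaling, the filter, the probe rule, the arrays and the slide. Normexp used the median spot signal, since the scans held no mean signal.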

Additional observations from a re-analysis of the deposited data

How the results depend on the processing

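Over 10 alternatives limma called no member and no gene in any setting that allowed a test; leaving out an LSD1 tumour, or slide as a block, left no residual degrees of freedom and gave values only. The count of members at least 1.5-fold higher in both LSD1 tumours (17) became 5 with quantile normalization, 6 in the authors' value table, 8 with the percentile over detected probes and 40 with slide as a block, which compares LSD1 tumour 3 with the p53 tumour on their shared slide. Without either LSD1 tumour it was 17 to 40, and the count at least 1.5-fold lower was 0 to 1 (Psmb9, without LSD1 tumour 3). The constitutive median with quantile normalization was 0.29 in LSD1 tumour 2 and 0.51 in LSD1 tumour 3, where it was 0.64 in the authors' table and 0.67 with detected probes. These 3 scalings moved the median of all genes to between -0.16 and -0.02 in LSD1 tumour 2 and between -0.20 and 0.05 in LSD1 tumour 3. Psme1 less Psme3 reversed to 0.41 with slide as a block and ranged from -0.59 to 0.41 without either tumour. Mean differences over both LSD1 tumours reversed in the order quantile, authors' table and detected probes for Psmb8 (-0.29, -0.18 and -0.12), Psmb9 (-0.38, -0.24 and -0.18), Psmb10 (-0.18, -0.071 and -0.0091) and Psme1 (-0.22, -0.098 and -0.036), and for Psmb9 with normexp (-0.00091). Psme2b reversed with quantile normalization (-0.038), Psme3 in the authors' table (-0.0095), and Psme3ip1 in the authors' table (-0.17) and with detected probes (-0.11). Leaving out either LSD1 tumour gave -0.011 to 0.23 for Psmb8, -0.67 to 0.77 for Psmb9, -0.39 to 0.82 for Psmb10, -0.33 to 0.71 for Psme1, -0.11 to 0.76 for Psme4, -0.034 to 0.62 for Psmd10, -0.056 to 0.72 for Psmc4, -0.44 to 1.498 for Nfe2 and -1.05 to 2.50 for Ifng. The causes were not tested. The other 384 values of named genes kept their direction, not always their size: Psmc3ip (0.96) was 0.0074 without LSD1 tumour 3, and Psmb6 (0.59) was 0.14 with quantile normalization. In the comparisons, the other 91 values were counts within 1.5 times of the one reported, medians that moved by less than the spread between the LSD1 tumours, and pair ratios that kept their direction. No paired analysis was possible because the p53 tumour shares no replicate number with the LSD1 tumours.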
